A study of Mus musculus with 64 samples.

Results

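Gene expression in the hippocampus was compared with that in the prefrontal cortex of the same unstressed mice. The comparison used 16 of the 64 libraries of the series: 8 of hippocampus and 8 of prefrontal cortex from 8 control animals, paired by the animal code in the sample names (C1 to C8), so that replicates are separate animals. The mice were male BALB/c animals, 28 weeks of age, that stayed unstressed while their counterparts were exposed to unpredictable chronic mild stress (UCMS) for 9 weeks. No transgene, deletion or drug is named in the labels for any group. Brain tissue was dissected between ZT12.5 and ZT14.5, which for the stressed animals was 14 to 16 hours after the last stress exposure, and 100 ng of total RNA per sample was depleted of ribosomal RNA and made into directional libraries. Another 16 libraries, both regions of 8 UCMS animals of the same strain, sex and age, served to repeat the contrast, and control hypothalamus levels are given beside some genes.

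The hippocampus is built from fields, the dentate gyrus and CA1 to CA3, each with its own excitatory neuron, and is known for its role in declarative and spatial memory. The prefrontal cortex is a layered neocortex, whose excitatory neurons differ between upper and deep layers, and is known for its role in planning and in the control of emotion. Both take part in the feedback of corticosteroids on the stress axis, which acts through a mineralocorticoid and a glucocorticoid receptor. In bulk tissue a lower level can mean fewer cells of a type or less RNA per cell, and these cannot be told apart here.

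Levels are log2 values as the authors deposited them, and a difference is hippocampus minus prefrontal cortex on that scale. The authors normalized each region's table apart from the other, so region and table cannot be told apart, and a small offset between the tables would look like a regional difference. For this reason a gene was called only where the within-animal difference exceeded 0.5 on the log2 scale beyond its error (limma, adjusted p under 0.05). Of the genes listed, 15279 were in both tables, 418 in that of prefrontal cortex alone and 294 in that of hippocampus alone. After the 10% with the lowest mean were left out, 13751 genes were tested. The median difference over these was 0.05, and 92.0% of them differed by less than 0.5.

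Several libraries stood apart, and this bears on what follows. The mean level of 17 striatal neuron markers, which should be low in a cortical sample, ran from 3.28 to 6.44 over the control prefrontal cortex libraries, and the libraries of C2 (6.39) and C6 (6.44) were the highest. The library of C2 was also the richest in choroid plexus markers (6.75, against 3.60 to 4.38 in the other 7), and that of C8 in olfactory bulb markers (5.64, against 2.06 to 3.78). Slc17a7, the vesicular glutamate transporter of cortical and hippocampal excitatory neurons, stood at 7.91 in the prefrontal cortex of C2 and at 8.83 to 9.41 in that of the other animals. In hippocampus the choroid plexus markers were highest in C5 (6.23) and C8 (5.74), and red blood cell genes were high in both regions of C1 (14.6 and 14.3) and in the hippocampus of C7 (14.4). Values without these animals are given below for several genes whose call changed.

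A total of 158 genes (1.15% of those tested) were higher in hippocampus and 113 (0.822%) were higher in prefrontal cortex. Of these 271 genes, 266 had levels that did not overlap between the regions, against 1041 genes (7.57%) among all tested, and 270 had all 8 within-animal differences in 1 direction. Without animal C2, limma called 188 genes higher in hippocampus and 169 higher in prefrontal cortex. At an unadjusted limma p under 0.05, with all 8 animals, 311 of 13751 genes were higher in hippocampus. In prefrontal cortex 250 were higher. With no minimum difference the counts were 2251 (16.4%) and 1219 (8.86%), together 25.2% of the genes tested, and 60.9% of all genes had a difference above 0.

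**Figure D1:**
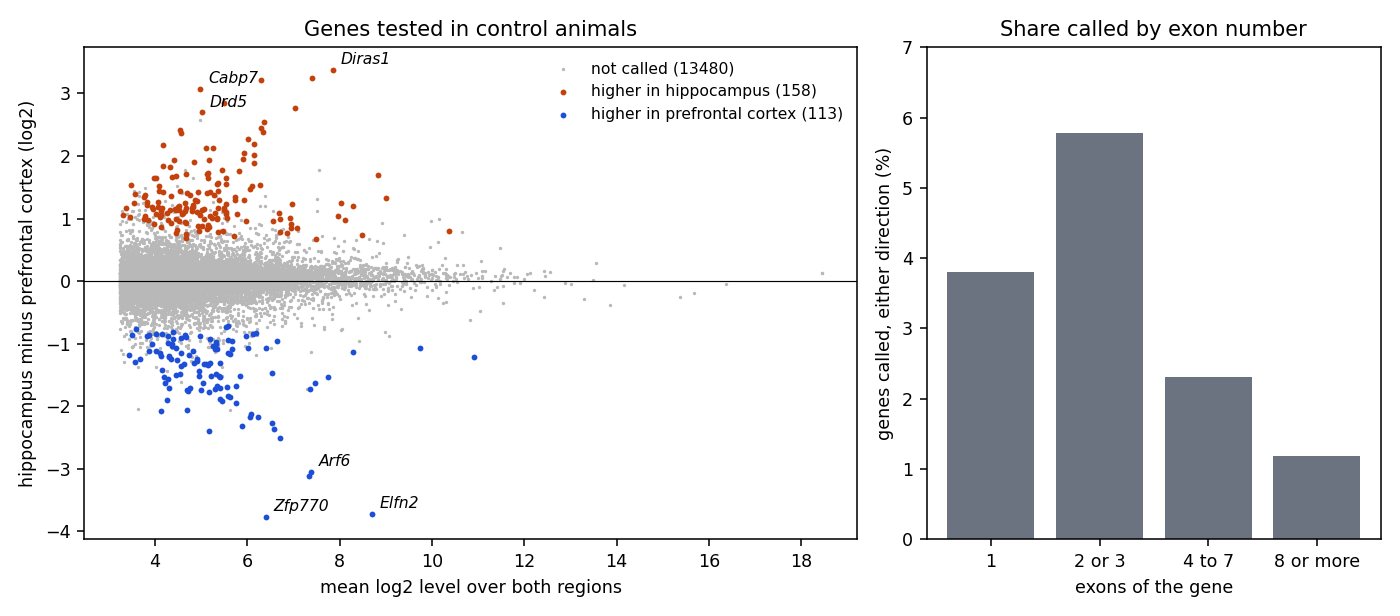
Left, the difference between regions (hippocampus minus prefrontal cortex, log2) against the mean log2 level for each of the 13751 genes tested in control animals, with 158 genes called higher in hippocampus in orange and 113 called higher in prefrontal cortex in blue. Right, the percentage of genes called in either direction by the number of exons, which runs from 5.78% for genes with 2 or 3 exons to 1.19% for genes with 8 or more.

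Genes with few exons were called more often than others. Among genes with 2 or 3 exons 5.78% were called, among those with a single exon 3.81%, with 4 to 7 exons 2.31%, and with 8 or more 1.19%. The median was 5 exons for called genes and 9 for all tested genes, among the 87.3% of tested and 91.5% of called genes whose exon number was matched. When only genes with at least 4 exons were fitted, 95 were higher in hippocampus and 68 in prefrontal cortex. Whether exon number took part in the calls was not tested. Among genes with many exons, chosen after their values were seen, Cpne6 (1.76 ± 0.10, limma adjusted p = 3.39e-05) and Cpne7 (1.72 ± 0.18, 0.00256), which encode calcium-dependent membrane-binding copines, were higher in hippocampus. The collagen receptor gene Ddr2 (-1.72 ± 0.14, 0.00034) and Lpp (-1.75 ± 0.09, 9.74e-06), which encodes a protein of cell adhesions, were higher in prefrontal cortex.

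Among the genes with the largest differences, Diras1, which encodes a Ras-related GTPase (chr10:81019589-81025835 on GRCm38), ranged from 6.01 to 6.32 (median 6.21) in prefrontal cortex and from 9.46 to 9.59 (median 9.57) in hippocampus. The difference was 3.38 ± 0.05 (SE, n = 8 pairs), or 10.4-fold, with a limma adjusted p of 3.42e-10, and in control hypothalamus the gene stood at 5.09 ± 0.22 (SD). Cabp7, a neuronal calcium-binding protein, ranged from 2.48 to 4.17 (median 3.49) in prefrontal cortex and from 6.29 to 6.91 (median 6.46) in hippocampus. All hippocampus libraries were above all cortical ones for both genes. The difference for Cabp7 was 3.07 ± 0.16 (limma adjusted p = 5.22e-06). Others among the 12 largest differences were Exph5 (2.84), the transcription factor gene Cebpg (2.77), Drd5 (2.70), Abi3 (2.55), the phosphodiesterase gene Pde1c (2.41), the antisense transcript Dlx6os1 (2.39), Grip2 (2.37), which encodes a scaffold of AMPA receptors, and C2cd4c (2.28). Rpl35a-ps2 (3.24) was among them too, but it is a near copy of another gene, so that its level is uncertain, as is that of Dlx6os1 if the authors counted without strand. Many of these genes have few exons, the kind called more often. Diras1, Cebpg and C2cd4c have 2, Drd5 has 1 and Dlx6os1 has 3. Cabp7 has 5, Exph5 has 6, Abi3 has 8, Pde1c has 19 and Grip2 has 24.

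In the opposite direction, Elfn2, a leucine-rich repeat membrane protein (chr15:78667333-78718771), ranged from 10.3 to 10.8 (median 10.6) in prefrontal cortex and from 6.70 to 6.99 (median 6.83) in hippocampus. The difference was -3.72 ± 0.06 (SE, n = 8 pairs; limma adjusted p = 1.09e-09), which is 13.2-fold, and control hypothalamus stood at 10.1 ± 0.05 (SD). Arf6, a small GTPase of membrane traffic, ranged from 8.79 to 9.11 (median 8.90) in prefrontal cortex and from 5.75 to 6.04 (median 5.86) in hippocampus, with a difference of -3.05 ± 0.06 (limma adjusted p = 1.37e-09). Its level in hypothalamus was 5.05 ± 0.14. Zfp770, a zinc finger gene, had the largest difference of all named genes (-3.77 ± 0.08), and its cortical libraries (8.15 to 8.46) lay far above the hippocampal ones (4.26 to 4.92). The rest of the 12 were Paqr7 (-3.12), a membrane progestin receptor gene, Rbm12b2 (-2.51), Wibg (-2.39), the Integrator subunit gene Ints5 (-2.37), Zfp628 (-2.31), the ubiquitin ligase gene Siah1a (-2.27), Zfp518a (-2.17), BC003965 (-2.13) and Itgbl1 (-2.08). Siah1a and Rbm12b2 have close paralogs, so reads may have been split between copies. Few exons were frequent here too. Zfp770, Elfn2, Arf6, Ints5, Siah1a and BC003965 have 2 and Zfp628 has 3. Paqr7, Rbm12b2 and Wibg have 4, Zfp518a has 5 and Itgbl1 has 11. Among the genes named here, Elfn2, BC003965 and C2cd4c had hypothalamus levels (10.1, 7.21 and 7.34) near those of the higher region, while Arf6, Zfp770, Diras1 and Cebpg had levels (5.05, 4.77, 5.09 and 5.84) near those of the lower one. All of these named genes stayed called when each of the 8 animals was left out.

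Markers of the hippocampal fields were higher in hippocampus as far as they were called, with 1 exception, CA2. Of 13 dentate granule cell markers tested, 2 were higher in hippocampus and 0 in prefrontal cortex (limma; 2 and 0 at an unadjusted p under 0.05), and the median difference was 0.14. C1ql2, a synaptic organiser secreted at mossy fibre synapses, ranged from 2.43 to 4.33 (median 3.06) in prefrontal cortex and from 4.86 to 5.73 (median 5.27) in hippocampus. Prox1, the homeobox gene that specifies granule cells (chr1:190118035-190170827), ranged from 3.66 to 4.58 (median 4.34) and from 5.29 to 5.95 (median 5.37). The regions did not overlap for either gene. The differences were 2.18 ± 0.23 (limma adjusted p = 0.00124) for C1ql2 and 1.21 ± 0.13 (0.0111) for Prox1. The call of Prox1 was lost without C2, C5 and C8, the animals with choroid-plexus-rich libraries (1.26, adjusted p = 0.0651), a setting that leaves 5 animals. Calb1, which encodes calbindin, differed by 0.14 ± 0.07 and Dsp, desmoplakin, by 0.52 ± 0.21, and neither was called. Dcx, doublecortin of newborn neurons, differed by 0.32 ± 0.11 and was not called. The dentate markers Tdo2 (2.80) and Lct (3.93) were listed in the hippocampus table alone, where they had these mean levels.

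All 7 CA1 markers tested had a difference above 0, with a median of 0.68, and 1 was called. Gpr161, an orphan receptor of primary cilia, ranged from 2.72 to 3.89 in prefrontal cortex and from 4.51 to 5.16 in hippocampus, a difference of 1.43 ± 0.16 (limma adjusted p = 0.00748). Fibcd1 differed by 1.52 ± 0.25 (limma adjusted p = 0.0578), with 1 cortical library, that of C2 (5.11), as high as the hippocampal ones. Without C2 the difference of Fibcd1 was 1.74 ± 0.19 and was called (adjusted p = 0.00383), as it was without C1 (0.0484). Wfs1, the wolframin gene that marks dorsal CA1, stood at 5.47 ± 0.20 (SD) in prefrontal cortex and 6.14 ± 0.14 in hippocampus. Its difference of 0.67 ± 0.08 had the same direction in 8 of 8 animals. The estimate was larger than the minimum but was not called (limma adjusted p = 0.869). In UCMS animals 3 of the 7 CA1 markers were called higher in hippocampus, Fibcd1, Gpr161 and Pou3f1. The CA1 markers Lefty1 (4.39) and Spink8 (3.96) were in the hippocampus table alone.

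CA2 markers split. Ntf3, which encodes neurotrophin-3, was higher in hippocampus in 8 of 8 animals (1.83 ± 0.25, limma adjusted p = 0.0103). The cortical library of C2 (5.03, against a cortical median of 2.93) lay within the hippocampal range of 4.45 to 5.59. Without the animals rich in red blood cell genes the call was lost (adjusted p = 0.0842). Amigo2 (-1.52 ± 0.13, adjusted p = 0.000678), Stard5 (-1.32 ± 0.09, 0.000273) and Pcp4 (-1.17 ± 0.11, 0.00501) were higher in prefrontal cortex. Amigo2, an adhesion molecule that marks CA2 within the hippocampus, ranged from 6.06 to 7.26 (median 6.54) in prefrontal cortex and from 4.80 to 5.26 (median 5.14) in hippocampus. Pcp4, a calmodulin regulator, is also known from deep cortical layers, and its call was lost without the animals with choroid-plexus-rich libraries (-1.01, adjusted p = 0.0867). Rgs14 differed by 0.72 ± 0.09 and was called without C8, whose cortical library was rich in olfactory bulb markers (0.81, limma adjusted p = 0.0216). Of 9 CA3 markers 0 were called by limma, with 0 in each direction at an unadjusted p under 0.05. With no minimum 4 were higher in hippocampus and 1 in prefrontal cortex, against 16.4% and 8.86% of all genes. Among the 9, Grik4, a kainate receptor subunit, differed by 0.48 ± 0.08 with no overlap, Cpne4 by 0.72 ± 0.14 (called without C8, 0.87, adjusted p = 0.0251), and Bok by 0.03 ± 0.06, a direction that turned when the median difference was subtracted (-0.02).

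Few cortical layer markers were called, and some calls changed when both libraries of animal C2 were left out. Of 11 upper layer markers 3 had a difference above 0 and the median was -0.38, but limma called 1, Matn2, and that one was higher in hippocampus (1.02 ± 0.08, adjusted p = 0.00259). Lamp5, a membrane protein of upper layer neurons and of some interneurons (chr2:136052025-136069917), ranged from 4.73 to 6.74 (median 6.42) in prefrontal cortex and from 4.26 to 5.34 (median 4.81) in hippocampus. The lowest cortical value was that of C2, and it lay within the hippocampal range. The highest hippocampal value (5.34) was that of C2 too. The difference was -1.38 ± 0.27 (limma adjusted p = 0.165) over 8 animals and -1.66 ± 0.14 (0.000706) without C2. Likewise not called over the 8 pairs but called without C2 were Mef2c, a neuronal transcription factor outside the layer lists (-1.08 ± 0.16, adjusted p = 0.106, and -1.25 ± 0.08, 0.000508 without C2), and Lmo4 (-0.68 ± 0.10, 1.0, and -0.79 ± 0.05, 0.00712 without C2). Mef2c was also called with all 8 animals when they were not paired (limma adjusted p = 0.0262). For Mef2c, C2 had the lowest cortical (6.03) and the highest hippocampal value (6.14). In the 8 UCMS animals Lamp5 and Mef2c were called higher in prefrontal cortex (-1.57 and -1.27, limma adjusted p = 0.00566 and 0.00167).

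Of 19 deep layer markers 1 was called in each direction and the median difference was -0.13. Tshz2, a zinc finger homeobox gene, ranged from 7.91 to 8.60 (median 8.18) in prefrontal cortex and from 5.79 to 6.87 (median 6.58) in hippocampus, a difference of -1.73 ± 0.13 (limma adjusted p = 0.00026) with no overlap. Foxp2, the forkhead gene of corticothalamic neurons, was higher in hippocampus (1.65 ± 0.23, adjusted p = 0.0178), a call that was lost without C4, C5 or C7 (adjusted p = 0.0501 to 0.0524) or without the animals with choroid-plexus-rich libraries (0.155), and in UCMS animals it differed by 1.23 (adjusted p = 0.123). Fezf2, which specifies subcerebral projection neurons, differed by 0.30 ± 0.10, Tbr1 by -0.59 ± 0.18, Cux2 by -0.38 ± 0.24 and Rorb by -0.43 ± 0.11, and none of these was called with or without C2.

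**Figure D2:**
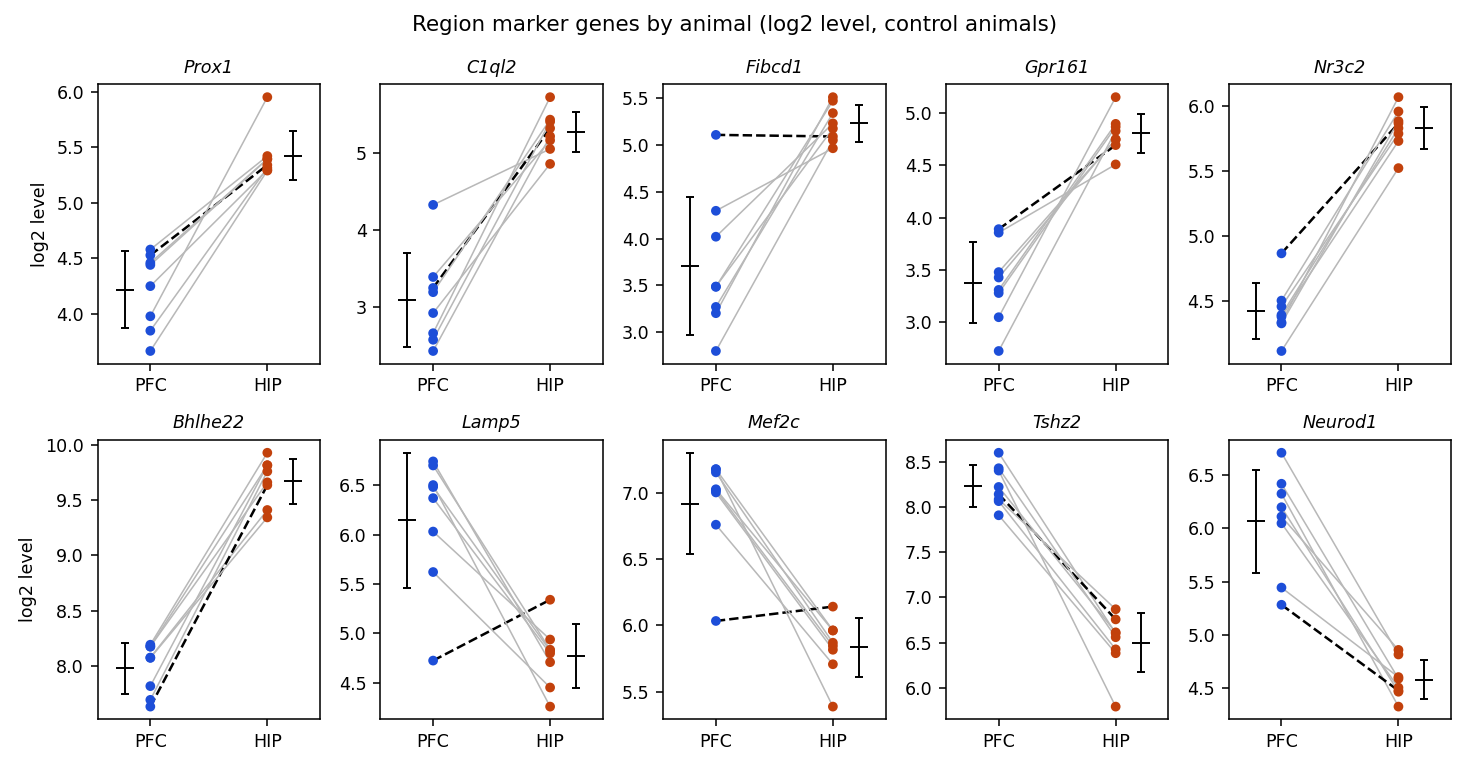
Log2 levels of 10 genes in prefrontal cortex (PFC, blue) and hippocampus (HIP, orange) of the 8 control animals, with lines joining the regions of an animal, a dashed black line for animal C2, and mean ± SD beside each region. The cortical library of C2 has the lowest level of Bhlhe22, Lamp5, Mef2c and Neurod1 and the highest of Fibcd1 and Nr3c2.

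Transcription factors of the telencephalon gave 7 calls higher in hippocampus and 2 higher in prefrontal cortex out of 52 tested, with a median difference of 0.06. Bhlhe22, a basic helix-loop-helix repressor, ranged from 7.63 to 8.19 (median 8.07) in prefrontal cortex and from 9.34 to 9.93 (median 9.71) in hippocampus, so that every hippocampal library lay over 1 log2 unit above every cortical one. Its difference was 1.69 ± 0.10 (limma adjusted p = 3.39e-05). The NeuroD family of neuronal differentiation factors went in opposite directions. Neurod6 was higher in hippocampus (1.23 ± 0.17, adjusted p = 0.0373), where it ranged from 7.17 to 7.90 against 5.15 to 6.63 in prefrontal cortex. Neurod1 was higher in prefrontal cortex (-1.49 ± 0.14, 0.0021), with 5.28 to 6.71 against 4.32 to 4.86. Neurod2 differed by 0.85 ± 0.09 and was called without C2 (0.76, adjusted p = 0.0249) or without C7 (0.89, 0.0434). The call of Neurod6 was lost without any 1 of 6 animals (adjusted p = 0.0548 to 0.0987). Pou3f2, a POU-domain factor, was higher in prefrontal cortex (-1.13 ± 0.14, 0.0385), a call lost without any 1 of 7 animals (0.0681 to 0.117) and not made in UCMS animals. Its relative Pou3f1 differed by 0.68 ± 0.10 and was not called in control animals, but was called higher in hippocampus in UCMS animals. Zbtb20, which is required for CA1 identity, stood at 4.33 ± 0.37 (SD) and 5.08 ± 0.17 and was not called in control animals (adjusted p = 1.0), but was in UCMS animals (0.89, 0.0332). Emx2, a patterning gene of the dorsal telencephalon, differed by -0.31 ± 0.09, and Tcf7l2, a thalamic marker, by 0.02 ± 0.11, a sign that turned when the tables were quantile normalized together or the median difference was subtracted.

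Receptors for glutamate differed for single subunits. Of 32 ionotropic receptor and auxiliary subunit genes, limma called 2 higher in hippocampus and 0 in prefrontal cortex (4 and 1 at an unadjusted p under 0.05), and the median difference was 0.02. Gria1, the AMPA receptor subunit that is mobilised in long-term potentiation (chr11:57011571-57330244), ranged from 6.07 to 6.91 (median 6.41) in prefrontal cortex and from 7.28 to 7.73 (median 7.41) in hippocampus, a difference of 1.003 ± 0.09 (adjusted p = 0.0079). Cacng8, an AMPA receptor auxiliary subunit (TARP gamma-8) known to be abundant in hippocampus, ranged from 6.35 to 6.67 and from 7.23 to 7.69, a difference of 0.91 ± 0.06 (0.00234). Neither overlapped, and the call of Gria1 was lost without the animals rich in red blood cell genes (0.94, adjusted p = 0.0798). Without C2, the auxiliary subunits Cnih2 (0.91 ± 0.07, adjusted p = 0.00505) and Shisa6 (1.58 ± 0.14, 0.00124) were called too, against 0.83 ± 0.08 (0.0683) and 1.36 ± 0.22 (0.0764) with it. The NMDA receptor subunits Grin2a (0.71 ± 0.15) and Grin2b (0.27 ± 0.06) were above 0 in 8 of 8 control animals and were not called there, while Grin2a was called higher in hippocampus in UCMS animals (0.74, adjusted p = 0.0447). Among 7 metabotropic receptors Grm3, a group II receptor, was higher in prefrontal cortex (-0.83 ± 0.08, limma adjusted p = 0.0434), a call lost without any 1 of 7 animals (0.0658 to 0.134).

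Of 19 GABA receptor genes 1 was called. Gabra5, the alpha-5 subunit of extrasynaptic GABA-A receptors (chr7:57407669-57591016), ranged from 4.41 to 5.06 (median 4.79) in prefrontal cortex and from 5.77 to 6.10 (median 5.96) in hippocampus. All hippocampal libraries were higher, and the difference was 1.18 ± 0.08 (limma adjusted p = 0.000383). Other subunits stood in both directions. Gabra2 differed by 0.75 ± 0.08, Gabra3 by -0.73 ± 0.07 and Gabrd, the delta subunit, by -0.73 ± 0.12, and these 3 were called when C2 was left out (0.80, -0.80 and -0.85, adjusted p = 0.0391, 0.00436 and 0.0112), Gabra3 also without pairing by animal (0.0476). Gad1, which makes GABA, stood at 6.75 ± 0.39 (SD) and 6.62 ± 0.08. Of 28 interneuron markers limma called 0, with 2 higher in hippocampus and 3 in prefrontal cortex at an unadjusted p under 0.05. In UCMS animals 3 of them, Lamp5, Npy and Penk, were called higher in prefrontal cortex and 0 higher in hippocampus. Sst, somatostatin, ranged from 7.98 to 8.36 in prefrontal cortex and from 7.74 to 7.95 in hippocampus, which did not overlap, but the difference was -0.29 ± 0.05. Pvalb, parvalbumin, differed by 0.13 ± 0.28 with C2 and by -0.13 ± 0.20 without it, and Vip by -0.27 ± 0.26.

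With all 8 control animals, the 3 monoamine and muscarinic receptor genes that were called were higher in hippocampus. Drd5, a dopamine receptor of the D1 class (chr5:38319509-38322523), ranged from 2.88 to 5.34 (median 3.55) in prefrontal cortex and from 6.06 to 6.89 (median 6.33) in hippocampus. The highest cortical value was that of C2, and no cortical library reached the hippocampal range. Its difference was 2.70 ± 0.23 (limma adjusted p = 0.000234), or 6.48-fold. Htr1a, the inhibitory serotonin receptor 1A (chr13:105443693-105448133), ranged from 7.43 to 8.30 (median 7.62) and from 8.66 to 9.02 (median 8.96), a difference of 1.20 ± 0.12 (0.00688). Chrm2, the muscarinic M2 receptor, ranged from 3.77 to 4.52 and from 4.98 to 5.86 (1.19 ± 0.08, 0.000399). These were 2 of 16 dopamine, adrenergic, muscarinic and histamine receptors and 1 of 10 serotonin receptors tested. Htr2a, the excitatory serotonin receptor 2A, stood at 5.15 ± 0.47 (SD) and 5.22 ± 0.10, and the sign of its difference turned without C2 or C6. Drd1 stood at 8.15 ± 1.13 in prefrontal cortex and 6.43 ± 0.13 in hippocampus (-1.72 ± 0.32, adjusted p = 0.0813), and its cortical level was highest in the libraries rich in striatal markers. It was called higher in prefrontal cortex without C1 (-1.96, 0.0188), without the animals rich in red blood cell genes (-2.09, 0.0218) and in UCMS animals (-1.84, 0.0198). Drd1 was not called without the animals with striatum-rich cortical libraries (limma adjusted p = 0.206) or without those with choroid-plexus-rich libraries (0.837). Among UCMS animals its highest cortical level (9.425) was that of S1, whose cortical library was rich in striatal markers. The adrenergic receptor genes Adra1b and Adrb1 were called higher in prefrontal cortex without C2, and Adrb1 in UCMS animals too (-0.88, 0.0278). Chrm5 (5.19) was listed in the hippocampus table alone, and Drd2 (3.33, from 1.55 to 5.18) and Htr1d (3.31) in the prefrontal cortex table alone.

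Peptide receptors gave 1 call in each direction out of 20. Npy1r, the Y1 receptor of neuropeptide Y, ranged from 5.54 to 7.03 (median 6.74) in prefrontal cortex and from 4.65 to 5.21 (median 4.89) in hippocampus, a difference of -1.68 ± 0.16 (limma adjusted p = 0.00144). Mc4r, a melanocortin receptor, ranged from 3.90 to 4.87 (median 4.13) and from 4.99 to 5.85 (median 5.34), a difference of 1.12 ± 0.11 (0.0107) that was not called without the animals rich in red blood cell genes (1.15, 0.0573) or without those with choroid-plexus-rich libraries (1.19, 0.0823). Rxfp3, the relaxin-3 receptor, differed by 1.15 ± 0.17 with no overlap and was called without C2 (1.29, adjusted p = 0.00987) and in UCMS animals (1.66, 0.00253). Cckbr, the cholecystokinin B receptor, differed by -1.10 ± 0.22 (0.382) with C2 and by -1.34 ± 0.12 (0.00221) without it. Npy itself, a peptide of interneurons, differed by -0.83 ± 0.09 (0.114) and by -0.93 ± 0.05 (0.000418) without C2. Cckbr and Npy were called higher in prefrontal cortex in UCMS animals.

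**Figure D3:**
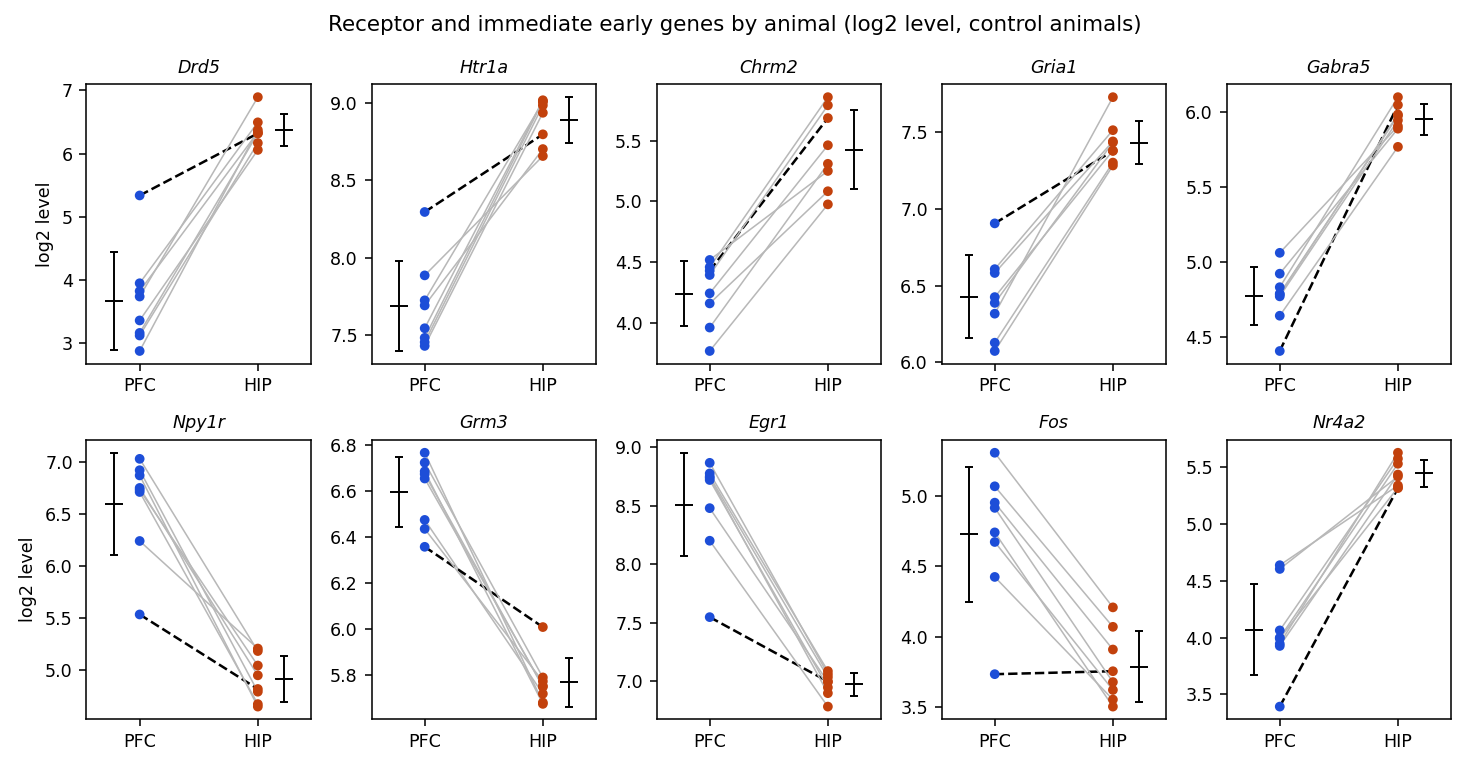
Log2 levels of 7 receptor genes and 3 immediate early genes in prefrontal cortex (PFC, blue) and hippocampus (HIP, orange) of the 8 control animals, drawn like the plot of region markers, with a dashed black line for animal C2. Drd5, Htr1a, Chrm2, Gria1, Gabra5 and Nr4a2 are higher in hippocampus in all 8 animals, while Fos is lower in hippocampus in all animals but C2.

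Of the corticosteroid receptors, the mineralocorticoid receptor differed and the glucocorticoid receptor did not pass the test. Nr3c2, the mineralocorticoid receptor (chr8:76898083-77245012), ranged from 4.12 to 4.87 (median 4.39) in prefrontal cortex and from 5.52 to 6.07 (median 5.85) in hippocampus. The regions did not overlap, and the difference was 1.41 ± 0.07 (limma adjusted p = 2.49e-05), or 2.65-fold. Nr3c1, the glucocorticoid receptor, ranged from 5.68 to 6.25 (median 5.95) and from 5.73 to 5.81 (median 5.78), a difference of -0.17 ± 0.06 (95% confidence interval from -0.31 to -0.03). Fkbp5, a glucocorticoid-induced co-chaperone of both receptors, stood at 4.14 ± 0.24 (SD) and 4.86 ± 0.10, with no overlap. Its difference of 0.72 ± 0.07 was larger than the minimum but was not called (limma adjusted p = 0.151). Nr3c2 was the only call among 14 genes of the corticosteroid system (1 of 14, with a median of 0.09), and in UCMS animals its difference was 1.64 (adjusted p = 0.001). Among 10 neurotrophin genes Ntf3 alone was called. Bdnf stood at 4.58 ± 0.71 and 4.99 ± 0.30, and Ntrk2, its receptor, at 6.94 ± 0.07 and 6.71 ± 0.03.

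Immediate early genes, which are transcribed within minutes of synaptic activity, were called in both directions. The promoters of 4 of the called members are shown because they stand on both sides of the comparison. They run from 250 bases before to 50 after the start of the gene in RefSeq on GRCm38.p6, and capitals mark the cAMP response element half-site TGACG on either strand and the longer motif TGANNTCA.
Egr4, chr6:85513540-85513839, minus strand: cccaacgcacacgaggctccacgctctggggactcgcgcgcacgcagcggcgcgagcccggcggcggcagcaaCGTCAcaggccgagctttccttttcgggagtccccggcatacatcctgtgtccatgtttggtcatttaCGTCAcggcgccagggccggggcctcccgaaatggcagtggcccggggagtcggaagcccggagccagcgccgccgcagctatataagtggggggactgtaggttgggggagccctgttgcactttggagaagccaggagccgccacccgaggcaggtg
Jun, chr4:95052173-95052472, minus strand: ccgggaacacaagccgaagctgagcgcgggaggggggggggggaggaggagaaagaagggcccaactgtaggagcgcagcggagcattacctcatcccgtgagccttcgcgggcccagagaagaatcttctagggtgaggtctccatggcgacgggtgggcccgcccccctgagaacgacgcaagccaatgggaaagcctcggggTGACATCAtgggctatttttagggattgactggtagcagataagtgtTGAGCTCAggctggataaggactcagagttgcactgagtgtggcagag
Nr4a2, chr2:57123954-57124253, minus strand: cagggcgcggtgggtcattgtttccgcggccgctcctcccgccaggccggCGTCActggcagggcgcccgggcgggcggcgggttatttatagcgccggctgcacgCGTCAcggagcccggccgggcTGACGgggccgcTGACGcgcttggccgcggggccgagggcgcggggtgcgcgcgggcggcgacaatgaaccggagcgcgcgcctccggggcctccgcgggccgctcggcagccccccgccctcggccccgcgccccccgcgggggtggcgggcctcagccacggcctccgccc
Nr4a3, chr4:48045055-48045354, plus strand: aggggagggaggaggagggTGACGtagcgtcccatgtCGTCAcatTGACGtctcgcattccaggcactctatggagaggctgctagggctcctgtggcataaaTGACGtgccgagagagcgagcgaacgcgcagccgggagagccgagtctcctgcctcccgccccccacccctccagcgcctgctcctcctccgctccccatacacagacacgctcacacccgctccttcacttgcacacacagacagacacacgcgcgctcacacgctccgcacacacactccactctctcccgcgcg
Egr4 holds 2 TGACG half-sites and was higher in prefrontal cortex, while Nr4a2 and Nr4a3 hold 4 each and were higher in hippocampus. Jun holds 0 half-sites and 2 copies of TGANNTCA. Of 32851 RefSeq promoters of this length, 20.8% hold at least 1 half-site, 5.01% hold 2 or more and 0.231% hold 4 or more, and 14.1% hold TGANNTCA. Counted by gene, among tested genes with such a promoter, the share with a half-site was 35.8% and that with TGANNTCA 11.5%. Among 18 immediate early genes with such a promoter, 14 hold a half-site, including Nr4a1 with 4 and Fos with 2, both with negative differences. The full response element TGACGTCA, which overlaps both motifs, was found in 2 of the 18, against 3.64% of tested genes with a promoter. Counted by promoter it was found in 1.79%.

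Limma called 3 of 23 immediate early genes higher in hippocampus and 2 higher in prefrontal cortex, and the median difference was -0.51. Egr1, a zinc finger factor, ranged from 7.55 to 8.87 (median 8.73) in prefrontal cortex and from 6.78 to 7.09 (median 6.99) in hippocampus, a difference of -1.54 ± 0.13 (adjusted p = 0.000756), or 2.90-fold. Egr4 ranged from 5.36 to 5.97 and from 4.51 to 5.02 (-0.92 ± 0.09, 0.0324). Neither overlapped, but the call of Egr4 was lost without any 1 of 5 animals (0.0753 to 0.107) and was not made in UCMS animals (-0.68, 1.0). On the other side, Nr4a2, an orphan nuclear receptor, ranged from 3.39 to 4.64 (median 3.997) in prefrontal cortex and from 5.32 to 5.63 (median 5.43) in hippocampus (1.38 ± 0.13, 0.00228). Jun, a subunit of AP-1, ranged from 8.08 to 8.49 and from 9.45 to 9.94 (1.32 ± 0.07, 4.69e-05). Nr4a3 differed by 0.94 ± 0.09 (0.0254), a call lost without any 1 of 4 animals (0.0598 to 0.0846). Nr4a2 is also a marker of claustrum and subplate neurons. On a list of 7 claustrum and endopiriform markers 6 had a difference above 0, with a median of 0.74, and Lxn, latexin, was called as well (0.96 ± 0.07, 0.00235). The call of Lxn was lost without the animals with choroid-plexus-rich libraries (0.87, 0.0744) and was not made in UCMS animals (0.79, 0.219). The part of these cells in the value of Nr4a2 was not tested.

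Leaving out both libraries of animal C2 changed the calls of 5 further immediate early genes. Without this animal, 7 were called higher in prefrontal cortex, namely Egr1 and Egr4 with Arc, Egr2, Egr3, Fos and Nr4a1, and the median of the list was -0.65. Arc, an organiser of AMPA receptor traffic, ranged from 6.58 to 8.48 (median 8.34) in prefrontal cortex and from 6.55 to 7.04 (median 6.84) in hippocampus, and Fos, a subunit of AP-1, from 3.73 to 5.30 (median 4.83) and from 3.50 to 4.21 (median 3.72). For both, the only cortical value below the animal's hippocampal one was that of C2. With C2, Arc differed by -1.14 ± 0.19 (limma adjusted p = 0.161) and Fos by -0.94 ± 0.13 (0.123). Without it the differences were -1.32 ± 0.13 (0.00435) and -1.08 ± 0.06 (0.000199), and those of Egr2, Egr3 and Nr4a1 were -1.16 ± 0.13 (0.0177), -1.10 ± 0.09 (0.00449) and -1.08 ± 0.07 (0.000743). In UCMS animals Arc (-0.94, 0.0474), Egr1 (-1.40, 0.000468) and Nr4a1 (-0.85, 0.0321) were called higher in prefrontal cortex, and Jun and Nr4a2 higher in hippocampus.

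Channels, guidance cues and adhesion molecules gave single calls within large families. Of 60 potassium channel genes 1 was called, Kcnf1, a silent subunit that modifies Kv2 channels, which was higher in prefrontal cortex (-1.07 ± 0.13, limma adjusted p = 0.0308), and 26 had a difference above 0. At an unadjusted limma p under 0.05, 1 was higher in hippocampus and 9 in prefrontal cortex, against 311 and 250 of 13751 genes. With no minimum 8 were higher in hippocampus and 18 in prefrontal cortex, against 16.4% and 8.86% of all genes. The call of Kcnf1 was lost without any 1 of 6 animals (0.0777 to 0.0943), while Kcnv1, another silent subunit (-1.18 ± 0.18, 0.0822), was called without C2 (-1.36, 0.000911). Both were called higher in prefrontal cortex in UCMS animals. Scn4b, an auxiliary sodium channel subunit, was higher in prefrontal cortex, with 5.08 to 6.73 against 3.86 to 4.51 (-1.74 ± 0.18, 0.00228). Its cortical level was highest in C6 (6.73) and C2 (6.59), the libraries richest in striatal markers. Without these animals Scn4b was still called (limma adjusted p = 0.00539). The part of striatal tissue in the difference was not tested. The call of Scn4b was lost without the animals with choroid-plexus-rich libraries (-1.61, 0.0714) and was not made in UCMS animals (-1.49, 0.137). Epha6, an Eph receptor of axon guidance, ranged from 4.04 to 4.36 and from 5.39 to 5.92 and was higher in hippocampus (1.42 ± 0.06, 7.77e-06). The semaphorin receptor gene Nrp1 was higher in hippocampus (0.81 ± 0.07, 0.0251), and Wnt9a (-1.19 ± 0.15, 0.0262) and the cadherin gene Cdh7 (-0.76 ± 0.06, 0.0417) were higher in prefrontal cortex. The calls of Nrp1, Wnt9a and Cdh7 were lost without any 1 of 6, 6 and 7 animals (0.0666 to 0.0792, 0.062 to 0.0876 and 0.0837 to 0.11). In UCMS animals Nrp1 and Wnt9a were called in the same direction, and Cdh7 was not called.

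Synaptic organisers, proteins that bridge or instruct synapses, were called in both directions within 1 family. Of 41 tested, C1ql2 and Lrrtm1 were higher in hippocampus and Lrrtm3 and Slitrk3 were higher in prefrontal cortex. Lrrtm1, a postsynaptic partner of neurexins, ranged from 5.93 to 6.23 in prefrontal cortex and from 6.86 to 7.17 in hippocampus (0.96 ± 0.05, limma adjusted p = 0.000412). Its relative Lrrtm3 ranged from 5.90 to 6.42 and from 4.93 to 5.26 (-0.94 ± 0.07, 0.00314). The call of Slitrk3 (-0.96 ± 0.11, 0.0375) was lost without any 1 of 7 animals (0.0786 to 0.108). Slitrk3 was called higher in prefrontal cortex in UCMS animals too.

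Non-neuronal cell markers showed no called difference in most lists. Limma called 0 of 26 astrocyte markers (2 at an unadjusted p under 0.05), 0 of 24 myelin and oligodendrocyte markers (2 unadjusted) and 0 of 17 microglia markers (1 unadjusted). Over all 13751 genes, 311 had such an unadjusted p and were higher in hippocampus, and 250 were higher in prefrontal cortex. With no minimum difference, 11 astrocyte markers were higher in hippocampus and 0 in prefrontal cortex, against 16.4% and 8.86% of all genes. The astrocyte list's median was 0.17. Gfap, the intermediate filament of astrocytes, ranged from 5.43 to 6.33 and from 6.44 to 7.01 with no overlap (0.90 ± 0.12, adjusted p = 0.179), and was called in UCMS animals (1.24, 0.0169). Mbp, myelin basic protein, stood at 7.09 ± 0.40 (SD) and 6.99 ± 0.13. Of 8 meningeal and fibroblast markers 1 was called, Dcn, which encodes the matrix protein decorin and was higher in hippocampus (1.67 ± 0.20, 0.0056), a call lost without the animals with choroid-plexus-rich libraries (1.65, 0.104). Also higher in hippocampus was Kdr, 1 of 11 endothelial markers and a receptor of vascular endothelial growth factor (1.02 ± 0.12, 0.0324), whose call was lost without any 1 of 6 animals (0.0618 to 0.102). Limma called 0 of 12 choroid plexus markers (1 unadjusted). Ttr, transthyretin, the defining product of choroid plexus, ranged from 3.59 to 11.8 in prefrontal cortex and from 4.85 to 12.2 in hippocampus, with no call (1.77 ± 1.37, adjusted p = 1.0).

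With all 8 control animals, limma called 0 of 13 striatal neuron markers (3 higher in prefrontal cortex and 1 in hippocampus at an unadjusted p under 0.05), with a median of -0.68. Penk, the enkephalin precursor, ranged from 4.92 to 8.61 in prefrontal cortex and from 3.90 to 5.13 in hippocampus (-2.06 ± 0.50, limma adjusted p = 0.21), and was called higher in prefrontal cortex in UCMS animals (-1.94, 0.0447), as was Drd1 (-1.84, 0.0198). Neither was called in control animals when those with striatum-rich cortical libraries were left out (limma adjusted p = 0.802 for Penk and 0.206 for Drd1). Adora2a, an adenosine receptor of striatal neurons, ranged from 2.37 to 6.92 and from 2.94 to 4.16, and without the animals with striatum-, olfactory-bulb- or choroid-plexus-rich libraries its difference went from -1.44 to 0.06. Without the control animals with striatum-rich cortical libraries, limma called 177 genes higher in hippocampus and 158 higher in prefrontal cortex. How far striatal tissue in cortical libraries took part in other differences was not tested.

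Housekeeping sets moved little but evenly. Of 45 nuclear genes of oxidative phosphorylation 43 had a difference above 0, with a median of 0.15, and limma called 0 (0 at an unadjusted p under 0.05). With no minimum 27 were higher in hippocampus and 0 in prefrontal cortex, against 16.4% and 8.86% of all genes. The median of this list was 0.11 when both tables were quantile normalized together, and 0.11 when the median difference of each animal was subtracted. Of 40 cytosolic ribosomal protein genes 39 had a difference above 0 (median 0.11), and 1, Rps15, was called (0.68 ± 0.04, adjusted p = 0.0466). That call was lost under both of these scalings and without any 1 of 7 animals (adjusted p from 0.0951 to 0.146 in the latter). With no minimum 6 of the 40 were higher in hippocampus and 1 in prefrontal cortex, against 16.4% and 8.86% of all genes. A difference above 0 was found for 60.9% of all genes. Of 21 circadian clock genes limma called 0 (0 unadjusted), and their median was -0.16. With no minimum 7 of them were higher in prefrontal cortex and 1 in hippocampus, against 8.86% and 16.4% of all genes. The size of any offset that separate normalization gave between the tables is not known, and its part in these differences was not tested. Region and table cannot be told apart here.

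**Figure D4:**
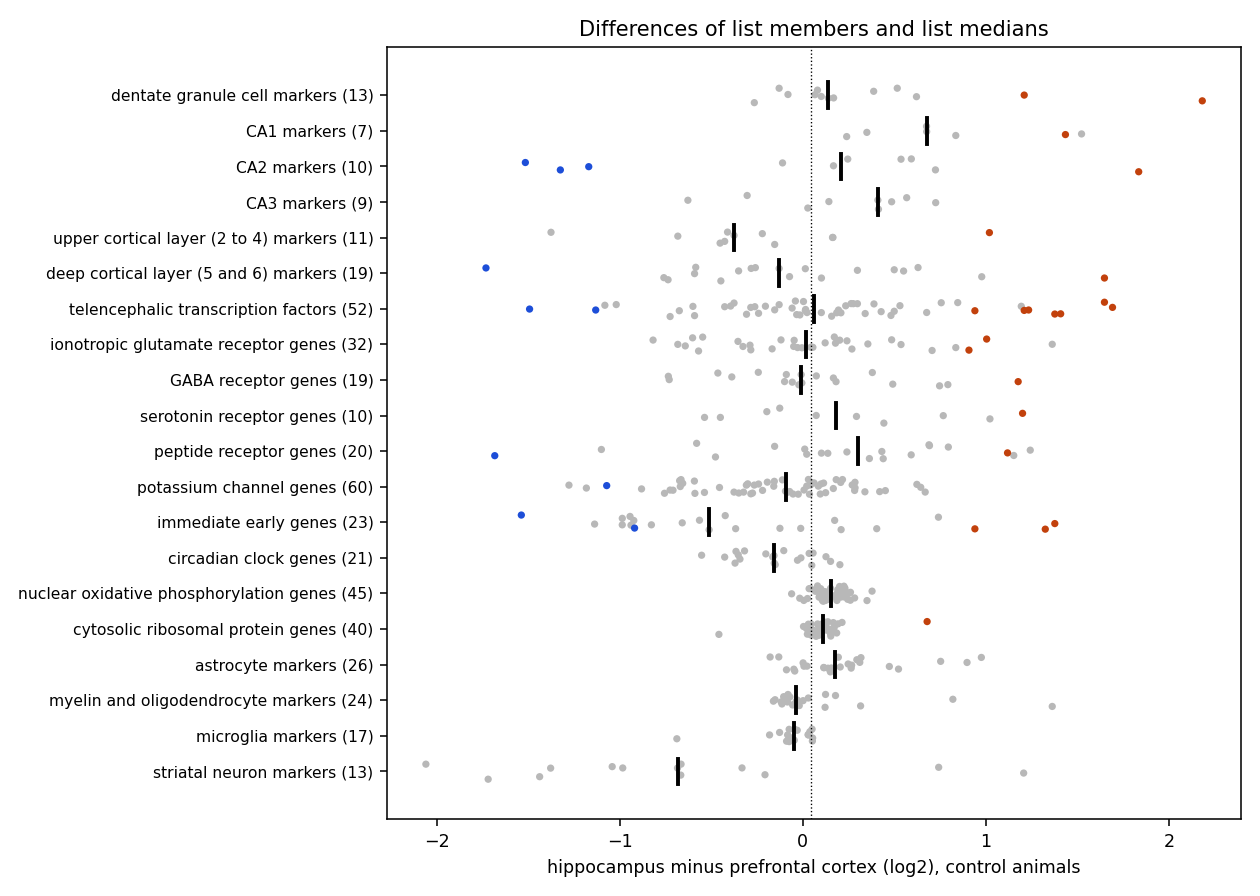
Differences (hippocampus minus prefrontal cortex, log2) of the tested members of 20 gene lists in control animals, 1 point per gene, orange where called higher in hippocampus, blue where called higher in prefrontal cortex and grey otherwise, with a black bar at the list's median and a dotted line at the median of all genes tested (0.05). CA1 markers have the highest median of these lists (0.68) and striatal markers the lowest (-0.68).

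Over all 44 lists, 748 distinct genes were tested and 42 were called. This share is not set against the 1.97% called among all genes, since lists and members were chosen with earlier results of these data known. Some of the lists also hold genes known to differ between brain regions.

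The contrast was repeated in the 8 UCMS animals, whose libraries are other samples of the same tables and so share any offset between the tables. Limma called 133 genes (0.967%) higher in hippocampus and 120 (0.873%) higher in prefrontal cortex, together 1.84%. All 271 genes called in control animals had the same direction in UCMS animals, and 185 of them were called there, which is 68.3% of the control calls and 73.1% of the UCMS calls. Drd5, for example, differed by 2.81 in UCMS animals against 2.70 in controls, Nr3c2 by 1.64 against 1.41, Gabra5 by 1.08 against 1.18, Prox1 by 1.33 against 1.21, and Npy1r by -1.78 against -1.68. Called in control animals and not in UCMS animals were, among others, Cacng8 (0.995 there, adjusted p = 0.074), Chrm2 (1.09, 0.0936), Lrrtm3 (-0.95, 0.0658), Matn2 (1.01, 0.216), Neurod6 (1.11, 0.0503) and Ntf3 (1.64, 0.0566).

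Whether stress changed the regional difference was tested on the within-animal differences of all 16 animals, in which an offset between tables cancels. By limma the smallest adjusted p was 0.482, so that 0 of 13751 genes passed. An unadjusted p under 0.05 was found for 217 (1.58%), against 5% expected if no regional difference changed. Why the share was lower was not tested. Among the 271 called genes the median size of the change was 0.09, and the largest was that of Crispld2 (-0.57), chosen here after its value was seen. For the mineralocorticoid receptor gene Nr3c2 the change was 0.23 ± 0.17 (SE, adjusted p = 1.0), for Egr1 0.14 ± 0.18, and for Gfap 0.35 ± 0.20. A change was therefore not detected, which does not show that the differences were equal in both groups.

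**Figure D5:**
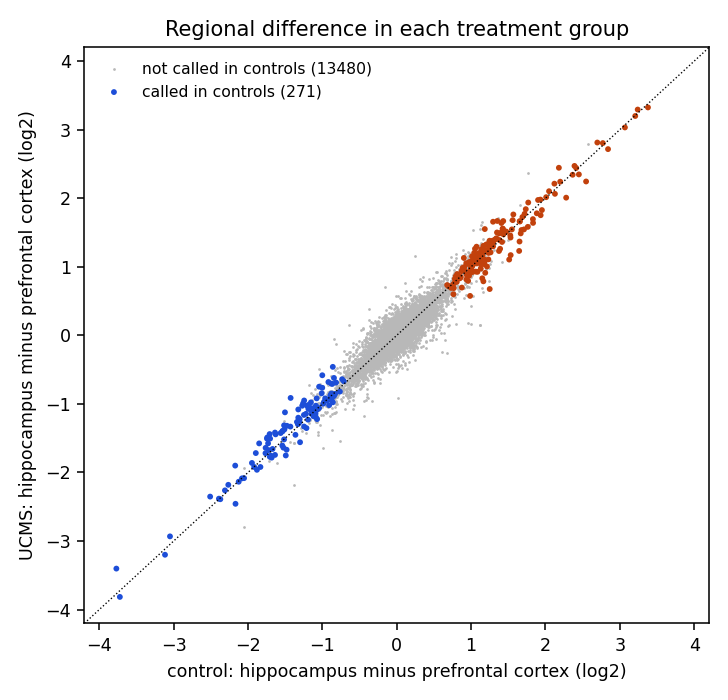
Difference between hippocampus and prefrontal cortex (log2) in 8 UCMS animals against that in 8 control animals for 13751 genes, with the 271 genes called in controls in orange (higher in hippocampus) or blue (higher in prefrontal cortex) and the dotted line at equal values. All 271 lie on the same side of 0 in both groups.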

How the data were processed

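RNA was sequenced from hippocampus and prefrontal cortex of 8 control and 8 UCMS mice. The authors deposited 1 table per region of log2 expression values per Entrez gene, on build GRCm38.p4 per the submitters' processing notes, while aligner and counter are not named there. The log2 scale and quantile normalization within each table were inferred from the deposited values (78.1% of ranks in prefrontal cortex and 78.8% in hippocampus were equal across libraries within 0.002). Depth is unknown, so no counting error can be given. Genes in both tables were joined, the lowest 10% by mean left out, and each fitted with limma 3.58.1 (R 4.3.3) with the animal as a block, a trended prior and a minimum difference of 0.5, with Benjamini-Hochberg adjustment. Pairing by animal comes from the labels. Deviations of an animal's libraries from their group means correlated at a median of 0.32 between regions (-0.26 to 0.66), against -0.08 with other animals, and 3 of 8 animals correlated best with their own number. Named were the 12 largest non-overlapping differences in each direction, defining members and the largest calls of 44 gene lists, and a fixed set; some genes these rules name are not reported here. The members and lists were chosen with earlier results of these data known. Alternatives changed scaling, filter, minimum, block, prior, and animals. Coordinates and promoters are from RefSeq on GRCm38.p6, and 96.8% of shared genes had coordinates. Figures were drawn with matplotlib 3.10.9.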

Additional observations from a re-analysis of the deposited data

Results flagged for a closer look

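Single libraries stood apart from the other 7 of their group for 23 of 256 gene and group combinations examined, where the gap to the nearest library relative to the group's range exceeded Dixon's 95% critical value for 8 samples. Chance flags about 1 in 20 such groups. The prefrontal cortex library of C2 was the lowest for 11 genes. These were Slc17a7 (7.91, next 8.83), Mef2c (6.03, next 6.76), Lmo4 (6.19, next 6.89), Tbr1 (4.93, next 5.92) and Neurod6 (5.15, next 6.44) among genes of excitatory neurons, the peptide genes Npy (5.15, next 5.84), Vip (2.48, next 3.96) and Crh (2.02, next 3.45), the receptor genes Cckbr (4.19, next 5.26) and Htr5b (1.55, next 3.39), and Bdnf (2.997, next 4.13). It was the highest for Drd5 (5.34, next 3.95) and Ttr (11.8, next 7.44).

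Elsewhere in prefrontal cortex, Arf6 was high in C7 (9.11, next 8.94), Cpne4 in C8 (5.12, next 4.41), and Lrrtm3 (6.42, next 6.15) and Pcp4 (6.88, next 6.23) in C6. In hippocampus, C3 was low for Cux2 (3.86, next 4.39), Kcnf1 (8.90, next 9.19) and Tshz2 (5.79, next 6.38) and high for Prox1 (5.95, next 5.42), and C2 was high for Grm3 (6.01, next 5.79) and low for Itgbl1 (2.53, next 3.02).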

How the results depend on the processing

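Counts in this paragraph are genes higher in hippocampus and then in prefrontal cortex. With no minimum difference there were 2251 and 1219 in control and 1299 and 986 in UCMS animals, and with a minimum of 1 there were 37 and 36, and 31 and 22. With genes of at least 4 exons only, an alternative added after the data were seen, there were 95 and 68 in control animals and 71 higher in prefrontal cortex in UCMS animals. Without the animals with striatum-, olfactory-bulb- or choroid-plexus-rich libraries, also added later, UCMS animals gave 80 and 62. Without the replicate block there were 166 and 122 in control and 148 and 126 in UCMS animals, and the calls of Cdh7 (adjusted p = 0.0565) and Nr4a3 (0.0668) were lost while Cnih2 (0.0408), Fibcd1 (0.0212), Gabra3 (0.0476), Kcnv1 (0.0366), Mef2c (0.0262), Rxfp3 (0.0316) and Shisa6 (0.0293) were gained. Leaving out 1 animal gave 131 to 188 and 90 to 169 in control animals, the highest both without C2, and 98 to 149 and 89 to 128 in UCMS animals. With both tables quantile normalized together there were 146 and 124, and with the median difference subtracted in each animal 141 and 130. The change with UCMS stayed at 0 calls in all alternatives run. Of 68 called genes among those named, 30 were called under all alternatives run and 55 with each animal left out. An alternative that left a gene out was not counted for that gene. Genes with fewer than 4 exons or no matched exon number, such as Diras1, Elfn2 and Arf6 among the 30, were thus never put to the alternative limited by exon number. Differences that turned sign, none of them called, were Adora2a without the animals with striatum-, olfactory-bulb- or choroid-plexus-rich libraries (0.058), Bok with the median subtracted (-0.0154), without C8 (-0.00657; range to 0.0583 with 1 animal left out), Gad1 without choroid-plexus-rich (0.026) and all such animals (0.091), Htr2a without striatum-rich (-0.157) and all such animals (-0.014) and, with 1 animal left out, from -0.0466 to 0.158, Mbp (0.0653 and 0.045), and Slc17a7 (-0.0647 and -0.0743) without striatum-rich and all such animals. They also included Pvalb without striatum-rich (-0.252), choroid-plexus-rich (-0.377) and all such animals (-0.624) and, with 1 animal left out, from -0.129 without C2 to 0.264, and Tcf7l2 with joint quantiles (-0.0123), the median subtracted (-0.0198), no hemoglobin-rich animals (-0.0918) and, with 1 animal left out, from -0.0544 without C7 to 0.115. The cause was not tested. Depth is unknown, and with 1 table per region no alternative here separates region from table.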
